A study of Microtus ochrogaster with 34 samples.

Results

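Among the 34 testis libraries of the fossorial vole Arvicola terrestris scherman (ATS), 11 came from males caught in winter without ongoing spermatogenesis (W-). The W- libraries were described here as 2 subsets, replicates 1 to 4 (W- 1 to 4) and replicates 5 to 11 (W- 5 to 11). The split was chosen from the data: W- 1 to 4 had the scores nearest to summer on the first principal component. It does not come from the labels, and W- 1 to 4 are also the 4 W- libraries with the most reads. Every gene therefore counts as used by the choice, and all values of one subset against the other are descriptions without a test. The study's histology placed a phenotype with empty seminiferous tubules and an intermediate phenotype in the W- group. The labels do not say which library belongs to which, so that the subsets cannot be read as these phenotypes.

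The wild-type voles were trapped in pastures in winter or summer, selected by weight for reproductive age and brought to an animal facility on the day of capture. The other groups were 18 summer males (S) and 5 winter males that maintain spermatogenesis (W+). Each library was made from polyA RNA of the frozen testis of 1 animal. No source used here gives ages, and all groups share the same genotype label and the same housing after capture.

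Spermatogenesis runs in the seminiferous tubules from spermatogonia, through the spermatocytes that carry out meiosis, to spermatids and spermatozoa, with Sertoli cells around them and Leydig cells between the tubules. In a seasonally regressed testis the later germ cells are lost, while spermatogonia and somatic cells stay. RNA of such a testis holds little of the transcripts that late germ cells make in quantity, and a larger share of transcripts from the cells that stay. In a bulk sample, fewer cells of a type and less RNA per cell cannot be told apart. The genes carry Ensembl identifiers that no source used here pairs with symbols, so that the genes are described by their behaviour in S and W-, and the libraries were not checked against cell type markers.

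Levels are RPKM, which are reads divided by the exon length in kilobases and by a library size. This size was not proportional to the counted reads. Counted reads per unit of relative size ran from 6011156 to 6839128 in W- and from 9519338 to 10889665 in S. Whole reads could be recovered from the RPKM and amounted to 9274261, 9004888, 9653984 and 9469440 in W- 1 to 4. The totals of W- 5 to 11 lay between 2938627 and 8019103, with W- 5 at the low end and W- 11 next, at 5081433. In the W- library of median depth, a gene of median length gained 0.0574 RPKM with each read. No pair of W- libraries agreed within sampling noise (lowest chi-square per degree of freedom 2.31). The lowest values were 2.31 for W- 6 and 9 and for W- 7 and 10, and 2.56 for W- 8 and 11. Every other pair had 5.46 or more. The labels give no reason for these close pairs, and whether W- 6 to 11 are fully independent of each other was not tested. Leaving out 1 library of such a pair keeps the other. W- 5 stood apart from the other 10 W- libraries on several measures, and results that rest on it are given with and without it.

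On the first component, which took 98.1% of the variance when the 500 most variable genes were used, W- 1, 2, 3 and 4 scored -57.5, -73.7, -72.8 and -62.7. W- 5 to 11 scored from -100.4 (W- 5) to -90.8 (W- 11). These are the values that chose the subsets: W- 2 at -73.7 was just inside and W- 11 at -90.8 just outside, a gap of 17.1, or 40.0% of the range of the W- scores. The 5 W+ libraries scored from -3.61 to 28.1 and the 18 S libraries from 38.4 to 52.0, so that W- 1 to 4 remained on the W- side of every W+ library. When each library was thinned to 2938627 reads, W- 1, 2, 3 and 4 scored -57.7, -74.4, -73.7 and -63.2, and W- 5 to 11 from -100.1 to -91.2. A component computed from the W- libraries alone held 39.0% of their variance and placed W- 1 to 4 between 14.3 and 25.5, with W- 5 to 11 between -17.6 and -0.79. The gap narrowed to 23.0% of the W- range over the 2000 most variable genes, and to 4.31% over all 19185 genes kept after the low-value filter.

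**Figure D1:**
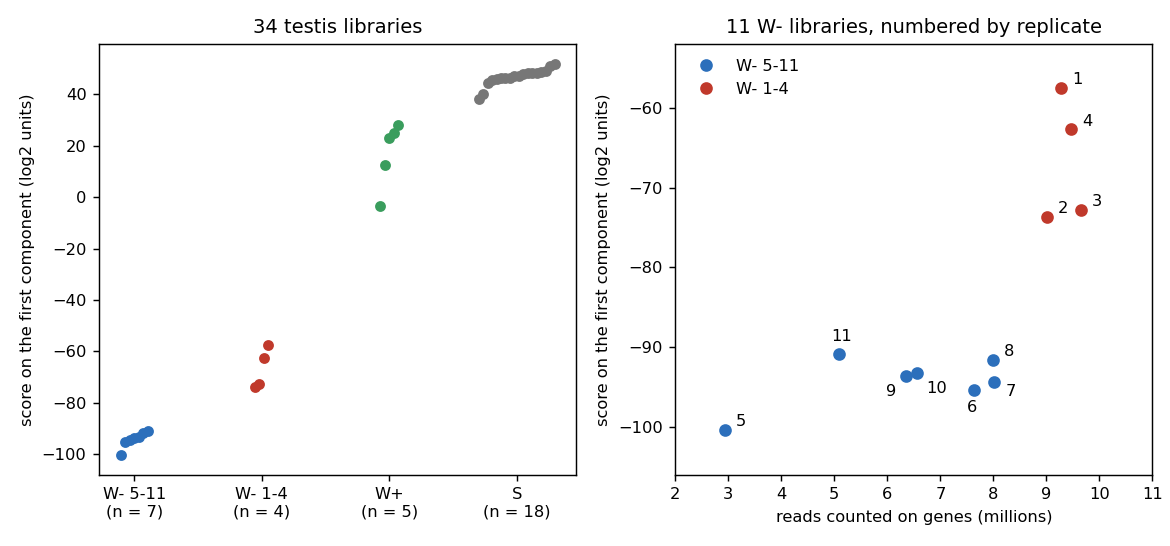
Scores on the first principal component (500 most variable genes, log2 RPKM + 1) by subset and group, 1 point per library, and the same scores of the 11 W- libraries against the reads counted on genes. W- 1 to 4 sit between -73.7 and -57.5 with 9004888 reads or more, and W- 5 to 11 sit at -90.8 or lower with 8019103 reads or fewer.

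Depth and the split cannot be told apart across the 11 libraries. Inside W- 5 to 11 the reads and the score had r = 0.562 and rho = 0.0714 over 7 libraries, and r was -0.000524 without W- 5 and W- 11, the libraries farthest from the median depth. These are descriptions without a test, since the score chose the subset and so limits its range. Within the 18 S libraries, which the choice left whole, r was 0.152 (permutation p = 0.536) and rho 0.294 (permutation p = 0.235, 0.470 when adjusted over both relations computed by Benjamini-Hochberg), and r was -0.09 without the 2 deepest.

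The genes were classed by the S against W- comparison, which used all 11 W- libraries. With limma, 5515 of 19185 genes (28.7%) were higher in S and 4375 (22.8%) were lower in S, at an adjusted p under 0.05 and a log2 difference beyond 1. This split depended on the scaling. Scaling by total reads moved the median S minus W- difference of all genes by -0.59 (log2), and 34.7% of the calls were then higher in S, against 55.8% as deposited. Quantile normalization moved it by -0.40, with 40.6% of the calls higher in S. Between the subsets, the same scalings moved the median difference of all genes by -0.06 and -0.14, from 0.14 as deposited.

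A gene was counted as separated where the 4 and the 7 values did not overlap and the mean log2(RPKM + 0.1) differed by more than 1. By this count 627 genes (3.27% of those tested) were higher and 400 (2.08%) were lower in W- 1 to 4. The balance depended on the scaling, with 519 higher and 506 lower under total reads and 500 higher and 779 lower under quantile normalization. Without the condition on size, 2237 genes (11.7%) lay higher without overlap and 1217 (6.34%) lower. The 627 genes had a median of 5.49 RPKM in W- 1 to 4, 1.17 in W- 5 to 11, 38.1 in W+ and 74.5 in S. Of them, 465 were called higher in S, 80 lower in S and 82 neither. The 400 genes had a median of 3.57 RPKM in W- 1 to 4, 9.01 in W- 5 to 11, 7.75 in W+ and 6.84 in S. Among these, 254 were called neither way, 95 higher in S and 51 lower.

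The higher and the lower genes thus stood differently towards summer. The mean of W- 1 to 4 was nearer to the S mean for 490 of the 627 higher genes (78.1%) and for 168 of the 400 lower genes (42.0%). W- 1 to 4 were chosen as nearest to S on the first component, so the first share follows largely from the choice. The same share over all genes tested was not computed. For 473 of the higher genes the S mean lay above both subsets. For 193 of the lower genes it lay between them, for 146 above both and for 61 below both. Leaving out W- 5 gave 898 higher and 617 lower genes, and leaving out W- 4 gave 610 lower genes. Fewer libraries make an overlap less likely by construction.

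The largest differences and the highest share of separated genes were found in transcripts that were abundant in S and nearly missing in W-. The 144 genes with S over W- by more than 8 (log2) had a median of 172 RPKM in S and 64.0 in W+. All 4 of W- 1 to 4 lay above all 7 of W- 5 to 11 in 118 of them (81.9%), and none was separated the other way. For each gene the level in a library was divided by the S mean. The median over the 144 genes was 2.43% of S in W- 1, 0.726% in W- 2, 0.459% in W- 3 and 1.40% in W- 4. In W- 5 to 11 it ran from 0 to 0.0437%, and in W+ from 16.5% to 49.5%. W- 1 to 4 thus held traces of these transcripts that were far below any W+ library and above each of the 7.

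In reads, these 144 genes collected 14566, 4285, 2880 and 8361 reads in W- 1, 2, 3 and 4, and between 128 and 289 in W- 5 to 11. Of all counted reads this was 0.157%, 0.0476%, 0.0298% and 0.0883% against 0.00168% to 0.00497%. Between 137 and 144 of the genes had at least 1 read in W- 1 to 4, and between 49 and 90 in W- 5 to 11. The summed level was 27.4 times as high in the mean of W- 1 to 4 as in the mean of W- 5 to 11. W- 1 carried much of this value: the ratio was 17.2 without it, and 24.96 to 33.86 with any other W- library left out. Over the single genes the median ratio was 27.0, with the 12 genes that had no read in W- 5 to 11 set to a floor of 3 reads over that subset. Thinning to equal reads kept the order: the summed level was 2.38%, 0.646%, 0.314% and 1.12% of S in W- 1 to 4, and 0.0164% to 0.0636% in W- 5 to 11.

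W- 1 to 4 were not alike in these transcripts. W- 1 had the highest level of the 4 in 130 of the 144 genes, and W- 3 the lowest in 104. In W- 1, 2 and 4 the genes kept nearly one common fraction of their S level, with a ratio of the upper to the lower quartile of 1.67 in W- 2 and W- 4 and a smaller one in W- 1. In W- 3 this ratio was 3.82. The correlation of log levels with the S mean across the 144 genes was 0.933 in W- 1, 0.893 in W- 2 and 0.907 in W- 4, but 0.686 in W- 3. With the W+ mean it was 0.925, 0.914, 0.747 and 0.935 in W- 1, 2, 3 and 4, higher than with S in all but W- 1. All of W- 5 to 11 had far fewer reads on these genes. Their correlation with the S mean was 0.662 to 0.704 in W- 5, 9, 10 and 11, and 0.341 to 0.368 in W- 6, 7 and 8. The reads did not follow this order, with 146 in W- 5 and 254 in W- 8. These values are across genes of single libraries, genes are not independent replicates, and those of W- 5 to 11 rest on a few reads per gene.

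In the 526 genes with S over W- by 5 to 8, the same order of subsets was seen with smaller distances. The median level was 2.78%, 1.55%, 1.93% and 2.54% of S in W- 1, 2, 3 and 4. It ran from 0.186% (W- 5) to 0.766% (W- 8) in W- 5 to 11, and from 21.3% to 58.0% in W+. The subsets did not overlap in these medians, and 218 of the genes (41.4%) were separated upwards. The summed level was 2.77 times as high in W- 1 to 4, and the median ratio over the genes, with those without reads in a subset at the same floor, was 3.26.

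In the 1164 genes with S over W- by 3 to 5 the order inside W- 1 to 4 changed. W- 3 and W- 4 stood at 9.29% and 8.81% of S, above W- 5 to 11, which lay between 2.49% and 6.34%. W- 1 and W- 2, at 5.95% and 6.17%, fell inside the range of the 7. W- 3 was above W- 1 in 782 of these 1164 genes, whereas it was below W- 1 in 141 of the 144 genes with the largest S excess. Of the 1164 genes, 100 (8.59%) were separated upwards, above the 3.27% of all genes tested, and 4 (0.344%) downwards, below the 2.08%. W+ libraries held 33.5% to 68.3% of S in this class.

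In the 3681 genes with S over W- by 1 to 3 the subsets overlapped, with 22.2% to 27.5% of S in W- 1 to 4 and 21.5% to 26.3% in W- 5 to 11. Here 29 genes (0.788%) were separated upwards and 91 (2.47%) downwards. The median log2 difference between the subsets fell through the classes from 3.56 and 1.48 to 0.45 and 0.05. These differences depend on the pseudocount where reads are few: at a pseudocount of 1 RPKM the medians of the outer 2 of these classes were 1.42 and 0.01.

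**Figure D2:**
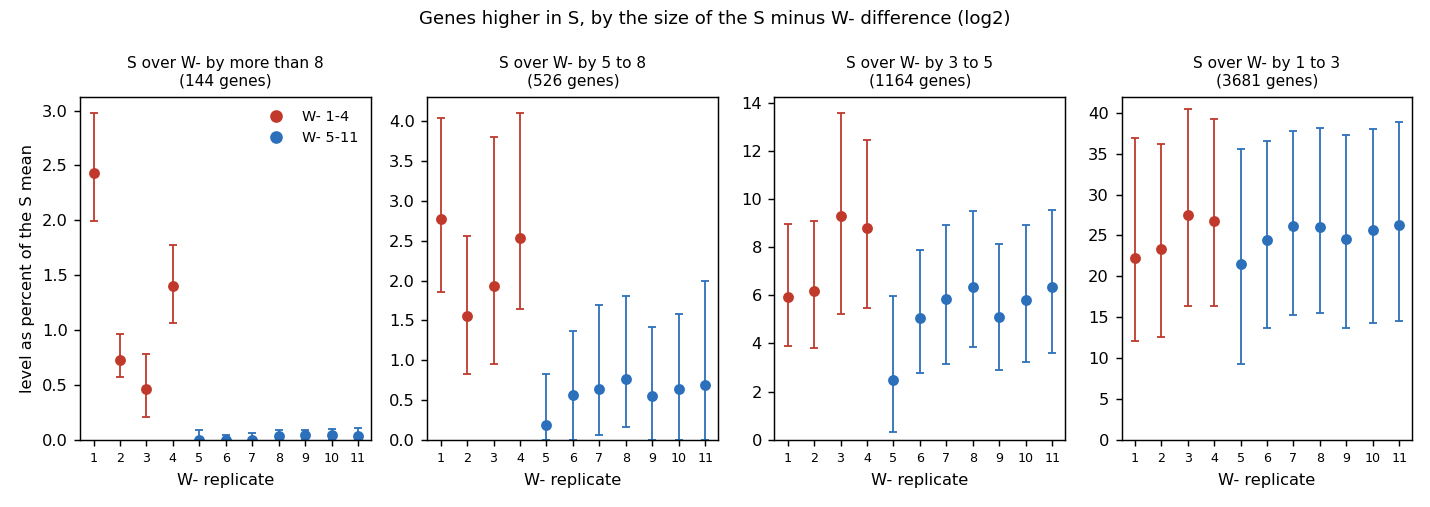
Level of the genes higher in S as a percentage of the S mean in each W- library, in 4 classes by the S minus W- difference; points are medians over the genes and bars run from the lower to the upper quartile. For the 144 genes with the largest excess W- 1 to 4 lie between 0.459% and 2.43% and W- 5 to 11 at or below 0.0437%, whereas for the 3681 genes on the right the subsets overlap.

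The identifiers with the largest upward difference among those at 5 RPKM or more in a subset belonged to the same class. ENSMOCG00000013236 had 22.7, 3.39, 1.84 and 7.72 RPKM in W- 1 to 4 (145, 22, 13 and 55 reads) and a single read, in W- 8, among W- 5 to 11. All 4 values lay above the 7, at levels well under the 533 ± 79.2 RPKM (SD, n = 18) of S and 210 ± 78.7 (SD, n = 5) of W+. Its S minus W- difference was 10.10 (SE 0.63, limma adjusted p = 8.71e-17). ENSMOCG00000010923, with an exon length of 123 bases, had 34.9, 6.84, 1.26 and 7.49 RPKM in W- 1 to 4 (50, 10, 2 and 12 reads) and a single read in W- 11. It stood at 965 ± 186 RPKM (SD, n = 18) in S. With a single read in W- 5 to 11, no fold is given for either gene.

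The identifiers with the largest downward difference were very short and had few reads. ENSMOCG00000008705 (67 bases) had 5.12, 0, 12.7 and 2.29 RPKM in W- 1 to 4, from 11 reads or fewer, and 13.9 to 34.7 RPKM in W- 5 to 11. ENSMOCG00000006363 (83 bases) had 6.20, 0, 5.60 and 5.55 RPKM against 9.44 to 19.2. The subsets did not overlap in either gene, and the S means of 10.2 and 8.13 RPKM lay between them. Neither was called in S against W- (limma adjusted p = 0.551 and 0.764).

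In the genes lower in S, W- 1 to 4 were not nearer to summer. These genes are raised in the regressed testis, and W- 1 to 4 stood higher in them than W- 6 to 11. The classes were cut on the mean of all 11 W- libraries. A high level in W- 1 to 4 or in W- 5 thus itself helped a gene to pass the limit. The higher level of these libraries follows in part from that limit and is no separate observation. Over the 94 genes with S under W- by more than 3, the median level was 12.2, 11.4, 12.2 and 10.5 RPKM in W- 1, 2, 3 and 4. It was 11.3 in W- 5, 8.63 in W- 8, 8.03 in W- 11, and 4.65 to 5.40 in W- 6, 7, 9 and 10. W+ libraries had 1.37 to 3.25 RPKM and S libraries 0.315 to 1.09. W- 1 to 4 were the libraries farthest from S except that W- 5 lay among them, and W- 8 and W- 11 stood between them and the other 4.

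Against the mean of W- 6 to 11, the median log2 difference over the 94 genes was 1.25, 1.04, 0.98 and 1.02 in W- 1, 2, 3 and 4, and 1.19 in W- 5. Between 75 and 78 of the 94 genes pointed upwards in each of these 5 libraries. Single genes overlapped between the subsets: 5 of the 94 (5.32%) were separated upwards and 0 downwards, against 3.27% and 2.08% of all genes tested. Without W- 5, 28 of the 94 were separated upwards, against 898 of all 19185 genes, where fewer libraries raise such counts by construction. Over the 4281 genes with S under W- by 1 to 3, the median level was 8.85 to 9.62 RPKM in W- 1 to 4, 10.8 in W- 5, and 7.52 to 8.13 in W- 6 to 11. Of these, 75 (1.75%) were separated upwards and 51 (1.19%) downwards, both under the shares of all genes tested. Without W- 5, 223 of the 4281 were separated upwards and 65 downwards, against 898 and 617 of all 19185 genes. The upward share was then no longer under that of all genes, while the downward share was. The median difference between the subsets was 0.23 with all 11 libraries, against 0.14 over all genes. The median differences of both classes kept their sign in the alternatives computed, scalings included. Some of these, such as other limits on size or overlap, cannot move a median. For the 4281 genes the median difference was 0.08 under quantile normalization and 0.09 with the length trend removed.

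**Figure D3:**
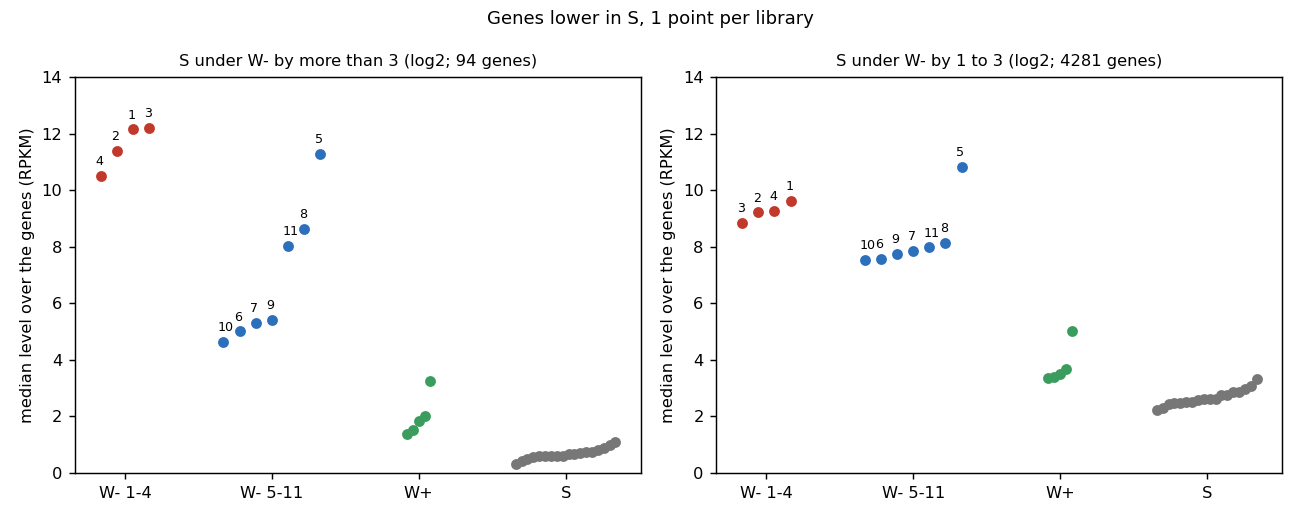
Median RPKM over the genes lower in S, 1 point per library with W- libraries numbered by replicate, for the 94 genes with the largest W- excess and for the 4281 others. W- 1 to 4 and W- 5 lie farthest from S in both panels, and in the left one W- 8 and W- 11 lie between them and W- 6, 7, 9 and 10.

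Each library was also placed between the mean of W- (0) and that of S (1) by projection, with a library left out of its own mean. Over the genes higher in S this is close to the score that chose the subsets. Their order there follows largely from the choice and is no separate observation. Over the genes higher in S, W- 1, 2, 3 and 4 stood at 0.157, 0.0755, 0.133 and 0.185, all above W- 5 to 11, which ran from -0.191 to -0.0281. Over the genes lower in S, they stood at -0.111, -0.0896, -0.00517 and -0.128, all below W- 6 to 11, which ran from 0.0333 to 0.157. W- 5 stood at the negative end for both, at -0.191 and -0.199. W+ libraries stood at 0.609 to 0.852 and at 0.447 to 0.815. The mean of W- 1 to 4 minus that of W- 5 to 11 was 0.211 over the genes higher in S and -0.151 over those lower in S. The second value depended on the scaling: it was -0.0593 under total reads and -0.0362 under quantile normalization, while the first was 0.265 and 0.212.

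Gene length moved with the split. In each of W- 1 to 4 short genes stood higher and long genes lower than in the mean of the 11 W- libraries, and in each of W- 5 to 11 the reverse was found. This mean includes both subsets, so opposite signs in them follow in large part from the reference and are not separate observations. The median deviation of the 3837 shortest genes (up to 766 bases of exon) minus that of the 3833 longest (3233 bases or more) was 0.560, 0.362, 0.195 and 0.531 in W- 1, 2, 3 and 4. It was -0.484 in W- 8, -0.435 in W- 11, -0.350 in W- 5, and -0.170 to -0.111 in the other 4. Computed in the same way against their own group means, it was -0.393 to 0.125 in S and -0.165 to 0.144 in W+. Genes of 3112 bases or more took 32.1% to 38.2% of the reads in W- 1 to 4, 41.9% to 46.2% in W- 5 to 11 and 37.1% to 41.1% in S.

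The median log2 difference between the subsets accordingly fell over 5 classes of rising length, from 0.42, 0.31 and 0.23 to 0.06 and -0.22. In the shortest class 198 genes were separated upwards and 34 downwards, and in the longest 23 and 196. The 627 higher genes had a median length of 1086 bases and the 400 lower genes one of 3206 bases, against 1709 bases over all genes tested. No source used here gives the RNA quality of single libraries, and the part of the length trend in the results was not tested beyond its removal.

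**Figure D4:**
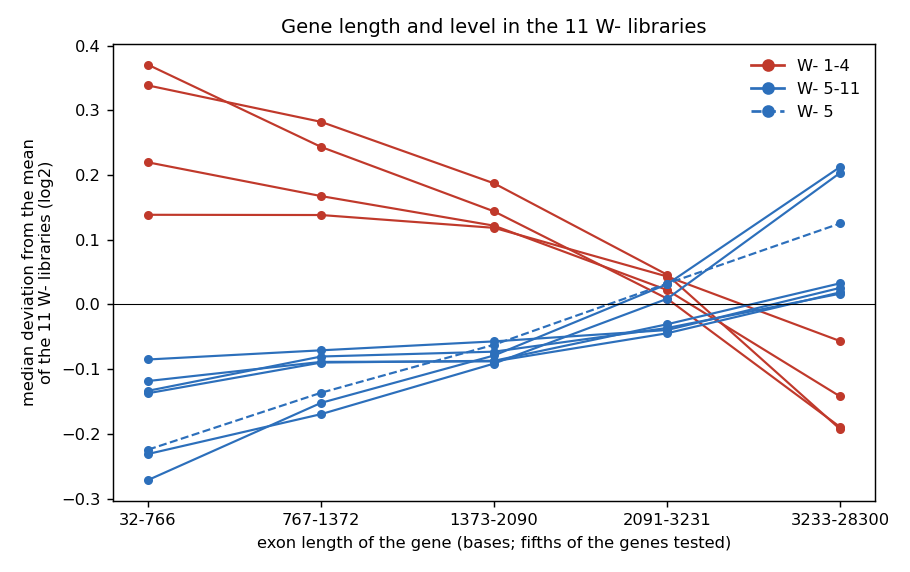
Median deviation from the mean of the 11 W- libraries (log2) in 5 equal classes of the genes by exon length, 1 line per library, W- 5 dashed. The lines of W- 1 to 4 fall from short to long genes, and those of W- 5 to 11 rise, most in W- 8 and W- 11.

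Removing the trend over length from each W- library left 375 genes separated upwards and 521 downwards. Of the 670 genes with S over W- by more than 5, 336 were separated upwards as deposited and 278 without the trend. Of the 18515 other genes, 291 were separated upwards as deposited and 97 without it, while the downward count went from 400 to 520. For the 144 genes with the largest S excess the median difference was 3.23 without the trend, against 3.56, and 108 of the 118 separated genes were still separated. For the 94 genes with the largest W- excess it was 0.73, against 0.94. The upward count thus fell from 118 to 108 in the 144 genes, and from 218 to 170 in the 526 genes with S over W- by 5 to 8. It fell most among the genes outside these classes.

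**Figure D5:**
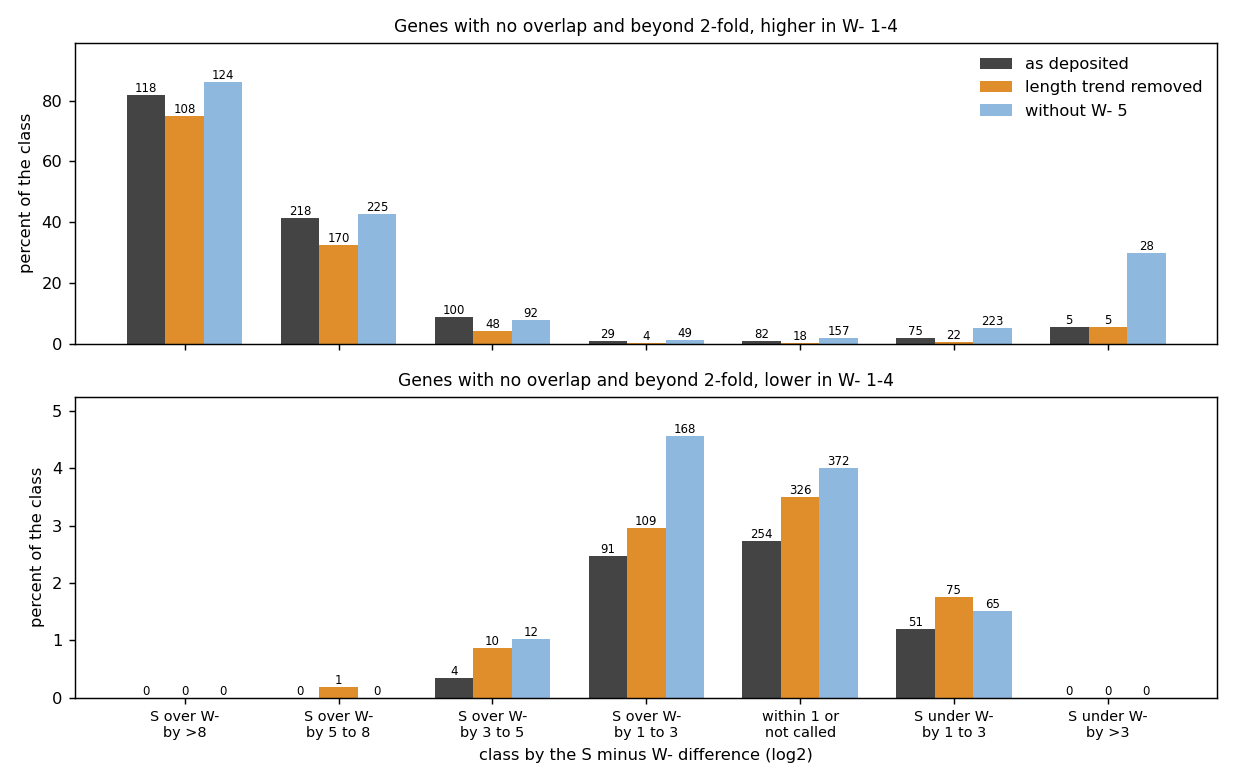
Percent of each gene class, by the S minus W- difference, that was separated upwards (top) or downwards (bottom) in W- 1 to 4, as deposited, with the length trend removed and without W- 5; numbers over the bars are genes. In all 3 sets of bars at least 108 of the 144 genes on the left are higher in W- 1 to 4. Of the 94 genes on the right, 5 are higher as deposited and with the length trend removed, and 28 without W- 5.

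Across 14139 genes, libraries of the same subset were more alike than libraries of different subsets, apart from W- 5. Pearson's r of log2(RPKM + 1) was 0.950 to 0.975 for the 6 pairs inside W- 1 to 4, 0.954 to 0.987 for the 15 pairs inside W- 6 to 11, and 0.887 to 0.941 for the 24 pairs across. W- 5 had 0.874 to 0.899 with W- 1 to 4 and 0.891 to 0.904 with W- 6 to 11, lower than any pair inside either set. Inside W- 6 to 11 the most alike pairs were W- 8 and 11 (0.987), W- 6 and 9 (0.985) and W- 7 and 10 (0.985). Inside W- 1 to 4 the closest pair was W- 1 and 2 (0.975). With reads thinned, the 3 ranges were 0.939 to 0.962, 0.945 to 0.975 and 0.878 to 0.931. The points share genes, and the pairs share libraries, so these values describe the libraries only.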

How the data were processed

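Testis RNA of 34 ATS males was measured by single-end polyA RNA-seq. By the study's account there was 1 library per animal, so that replicates are taken as animals. The authors trimmed reads (Trim Galore 0.6.10, FastQC 0.12.1), aligned them to the prairie vole genome MicOch1 with HISAT2, counted them per gene with HTSeq and deposited RPKM computed during DESeq2 normalization. The submitters' processing notes name mm10 as the build, which the methods name only for enrichment. Alignment of ATS reads to another species can lower the counts of diverged genes alike in all libraries. No source used here gives the strand setting or the annotation release.

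The file holds 23038 genes, of which 2217 were 0 in all libraries. Whole reads and exon lengths were recovered from the steps between values (100% of values whole, tolerance 0.02 of a read). limma 3.58.1 in R 4.3.3 was run on log2(RPKM + 0.1) of all 34 libraries in one fit (eBayes with trend), over genes with at least 0.1 RPKM in at least 5 libraries. Components used log2(RPKM + 1), centred. The length trend was removed as the median deviation in 50 bins of length per library. The correlation with depth within S was tested by permutation (scipy 1.17.1). The steps were tested on simulated data.

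The subsets, classes and lists were chosen with earlier results of these data known. The rule for named genes was 2 identifiers in each direction, with at least 5 RPKM in a subset, no overlap and the largest difference. The planned lists of testis cell type markers need symbols and were not used here. Alternatives covered the pseudocount, filter, scaling, thinning, thresholds, fit, replicate block and each W- library left out. Removal of the length trend, the count with no condition on overlap, the correlation without 2 libraries, the block comparison over the same libraries, the ratios of summed levels with a library left out and the second thinning were chosen after seeing the data. Replicate numbers did not pair the animals: deviations of same-numbered S and W- libraries correlated between -0.05 and 0.10.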

Additional observations from a re-analysis of the deposited data

Results flagged for a closer look

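In each subset 12 measures per library were examined for a single library far from the rest, by the gap to its nearest neighbour over the range of the subset (Dixon's criterion, which chance passes in about 1 of 20 groups). Of 24 examinations 5 passed, and all 5 named W- 5, the library with the fewest reads, among W- 5 to 11. Its score on the second component was 19.1. Its position between W- (0) and S (1) was -0.192 over all called genes, -0.191 over those higher in S and -0.199 over those lower in S. It had 16518 genes with a read. The subsets were chosen from the data, and the measures share genes, so these are not 5 separate signs.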

How the results depend on the processing

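Of the S against W- calls, the higher count stayed within 1.5 times of its value in all 25 alternatives (3927 to 7953; each W- library left out, 5467 to 5532). The lower count did so except under scaling by total reads (7399) and with no log2 threshold (7395); leaving out each W- library gave 4334 to 4425. A replicate block gave 5518 higher and 4434 lower genes, against 5521 and 4436 over the same libraries without it; same-numbered libraries share only a number. For genes higher and lower in W- 1 to 4, a pseudocount of 1 RPKM gave 417 and 232, and, by construction, a 1.5-fold limit gave 1667 and 900, a 4-fold limit 254 and 31, and no condition on overlap 1485 and 867. Quantile normalization gave 500 higher and 779 lower genes and removal of the length trend 375 higher genes. Leaving out each library gave 642 to 898 higher and 354 to 617 lower genes, with W- 4 (610) and W- 5 (617) past 1.5 times. The gap in score was 23.0% over 2000 genes and 4.31% over all genes, and 39.3% to 46.2% with a library left out. The mean position of W- 1 to 4 minus that of W- 5 to 11 kept its sign in all 16 alternatives: 0.0983 to 0.174 over all called genes (libraries left out, 0.130 to 0.174), and 0.197 to 0.236 with libraries left out over genes higher in S, with 0.149 at a pseudocount of 1 RPKM and 0.265 under total reads. Over genes lower in S it was -0.197 to -0.126 with libraries left out, -0.0593 under total reads and -0.0362 under quantile normalization. The sign over genes higher in S follows largely from the choice of the subsets. The median difference turned from positive to negative for genes with S over W- by 1 to 3 and for genes not called, under quantile normalization (-0.0368 and -0.0678) and without the length trend (-0.0487 and -0.0813). The correlation of reads with score in W- 5 to 11 turned to -0.000524 without 2 libraries. Except where named, the causes were not tested. The traces in W- 5 to 11 rest on 128 to 289 reads for 144 genes, so that the levels of single genes are imprecise there.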
